A study of Mus musculus with 6 samples.

Results

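Shelterin is the protein complex that coats the TTAGGG repeats at chromosome ends, and it is encoded in the mouse by 7 genes, Terf1, Terf2, Terf2ip, Tinf2, Pot1a, Pot1b and Acd. The helicase gene Rtel1, which acts at the same ends, is described with them. These 8 genes were taken from the count table by symbol, with earlier results of these data known. They are 8 of the 15565 genes in that table, and all 8 passed the filter on low counts that left 13288 genes for testing. Hepatocytes, the parenchymal cells of the liver, came from 3 C57BL/6 mice aged 2 months and were separated by sorting: TERT(High) cells on one side, TERT(Low) cells on the other. Tert encodes the catalytic subunit of telomerase, and mRNA libraries of both populations of each mouse were sequenced (3 TERT(High) and 3 TERT(Low) libraries). Every mouse, and so each group, had the genotype Tert(CreERT2/+); R26(LSL-Tomato/+): 1 Tert allele carried a tamoxifen-inducible Cre recombinase, and 1 R26 allele carried a Tomato reporter behind a stop that Cre removes. The sources used here give neither the gate that separated the cells nor any tamoxifen dose.

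Mice have a further subunit beside the set found in most mammals, because their POT1 gene is duplicated. TRF1 and TRF2, the products of Terf1 and Terf2, bind the duplex part of the telomere, and RAP1, the product of Terf2ip, rides on TRF2. TIN2, from Tinf2, ties TRF1 and TRF2 to TPP1, from Acd, and TPP1 carries the POT1 proteins to the single-stranded overhang and is the contact that brings telomerase to the end. In mouse cells TRF2 and POT1a are known for keeping the ATM and ATR checkpoint kinases silent at telomeres, and POT1b for limiting resection of the end and recruiting the CST complex. RTEL1 is not a shelterin subunit; it unwinds the telomere loop and other DNA structures during replication.

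None of the 8 genes passed the test for a difference between TERT(High) and TERT(Low) cells. In edgeR's quasi-likelihood test 0 of 8 had an adjusted p under 0.05, against 8.14% of all tested genes (4.43% higher and 3.71% lower in TERT(High) cells). DESeq2, limma-voom and edgeR with the mouse as a block also called 0 of 8, where they called 21.2%, 7.49% and 9.72% of all genes. Unadjusted, 2 of 8 had an edgeR p under 0.05, Terf1 and Terf2ip, both higher, beside 28.7% of all tested genes in either direction and 16.3% on the higher side. With the mouse as a block the genes under that value were Terf1 (higher) and Tinf2 (lower in TERT(High) cells), and Terf2ip lay just over it. In that fit 2384 of all 13288 tested genes were higher and 2037 lower at an unadjusted edgeR p under 0.05. Terf1 and Terf2ip were the genes whose TERT(High) and TERT(Low) libraries did not overlap, both higher in TERT(High) cells. Over all tested genes 33.4% did not overlap (17.5% with TERT(High) above, 15.9% with it below). A count of 2 among 8 is near this background. The largest fitted difference was that of Terf1, a log2 fold change of 0.81 (standard error, SE, 0.25), and the lowest was that of Tinf2, -0.44 (SE 0.21). The median log2 fold change was 0.28 over the 8 genes and -0.01 over all tested genes. Sorted populations were measured in bulk, so fewer cells with an RNA and less of it per cell cannot be told apart.

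Sequence bears on which of these counts are secure. Pot1a and Pot1b are paralogs with coding sequences of 1920 nt each, identical at 74.4% of positions without gaps. Their longest identical coding run was 41 nt, at coding positions 469 to 509 in both genes. It is shown with 15 bases on either side, from the GENCODE M21 transcripts (5′ to 3′, coding strand), and capitals mark the 5 bases at which the genes differ.
Pot1a: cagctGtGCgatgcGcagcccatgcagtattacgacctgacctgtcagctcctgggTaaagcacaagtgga
Pot1b: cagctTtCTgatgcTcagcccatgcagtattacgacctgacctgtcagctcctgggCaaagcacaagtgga
No stretch of 50 bases was shared between the Pot1a transcript and that of any other annotated gene, and 0% of 50-base stretches were shared for Terf2 and Rtel1 too. The share was 1.17% for Terf1, 1.05% for Terf2ip and 2.07% for Pot1b. Acd and Tinf2 differ from the rest. Of their 50-base stretches 26.0% and 15.8% also occur, on the opposite strand, in transcripts of the neighbours Carmil2 and Gmpr2. The library kit marks strand, but the sources used here do not state whether counting used it, and reads of these pairs cannot be told apart without it. Carmil2 was at 0.107 ± 0.0861 counts per 1000000 counts of the TMM-scaled library (CPM) for TERT(High) and 0.309 ± 0.164 CPM for TERT(Low) cells (SD, n = 3 each), far under Acd. Gmpr2 was at 6.99 ± 0.568 and 7.84 ± 0.832 CPM, similar in size to Tinf2. Terf2ip overlaps Gm6793 on the opposite strand by 108 nt, 2.18% of its exons.

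Promoter windows from RefSeq (GRCm38.p6) were at hand for 7 of the 8 genes. Each window spanned 250 bases before to 50 bases after the start. The 4 printed here belong to Terf2ip, whose groups did not overlap, to Tinf2 and Pot1a, which were lower in TERT(High) cells of all 3 mice, and to Pot1b, the paralog of Pot1a. Each is cut 30 bases after the start and given 5′ to 3′ on the gene's strand, and capitals mark CCGGAA (core of the ETS site), TGACGTCA (cyclic AMP response element), GCATGCG (core of the NRF1 site) and TTAGGG (the telomeric repeat unit), searched on both strands.
Terf2ip, chr8:112011109-112011388, plus strand: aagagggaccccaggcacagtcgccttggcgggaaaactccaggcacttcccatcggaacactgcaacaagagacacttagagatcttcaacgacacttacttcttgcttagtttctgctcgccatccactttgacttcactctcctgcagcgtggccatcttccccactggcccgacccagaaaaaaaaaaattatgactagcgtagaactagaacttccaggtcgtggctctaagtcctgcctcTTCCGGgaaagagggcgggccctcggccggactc
Tinf2, chr14:55681788-55682067, minus strand: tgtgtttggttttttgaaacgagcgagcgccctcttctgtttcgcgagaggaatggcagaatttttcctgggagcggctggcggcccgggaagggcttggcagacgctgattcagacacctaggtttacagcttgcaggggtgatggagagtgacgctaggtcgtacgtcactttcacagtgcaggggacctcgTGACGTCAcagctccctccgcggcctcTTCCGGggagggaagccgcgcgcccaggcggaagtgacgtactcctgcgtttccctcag
Pot1a, chr6:25809189-25809468, minus strand: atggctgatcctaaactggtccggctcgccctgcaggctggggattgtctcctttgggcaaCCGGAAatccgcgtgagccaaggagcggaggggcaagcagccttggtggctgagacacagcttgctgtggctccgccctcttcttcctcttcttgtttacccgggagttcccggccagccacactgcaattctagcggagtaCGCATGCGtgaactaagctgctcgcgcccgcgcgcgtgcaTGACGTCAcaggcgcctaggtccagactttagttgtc
Pot1b, chr17:55712595-55712874, minus strand: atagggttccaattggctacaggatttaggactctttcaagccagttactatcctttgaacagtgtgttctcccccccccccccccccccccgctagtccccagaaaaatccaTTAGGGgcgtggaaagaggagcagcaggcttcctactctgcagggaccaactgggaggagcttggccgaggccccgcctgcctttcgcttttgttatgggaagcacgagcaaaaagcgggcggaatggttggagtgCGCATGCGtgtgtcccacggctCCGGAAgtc
Pot1b has 2 windows in RefSeq, and the one whose printed part holds CCGGAA is shown. The ETS core CCGGAA was found in 6 of the 7 genes with a window, all but Terf2, and in 23.8% of the windows of genes in the count table. TGACGTCA was in Tinf2 and Pot1a and in 2.79% of those windows. GCATGCG, which runs into its own reverse complement in both genes, was in Pot1a and Pot1b and in 5.60% of windows. TTAGGG, the sequence that TRF1 and TRF2 bind at telomeres, was in Pot1b alone of the 7 and in 10.5% of windows. Neither TATAAA (the TATA box) nor CACGTG (the E-box) was in any of the 7, where 8.16% and 9.39% of windows held them. GGGCGG (the GC box) was in 5 of the 7 and in 58.3% of windows, and TGACTCA (the AP-1 site) in Rtel1 alone and in 3.98%. TGACGTCA and GCATGCG were added to the search after the sequences had been read. These are matches of letters, given as a description.

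Terf1, a duplex binder, had the largest fitted difference of the 8, and Terf2 the third largest after Pot1b. Terf1 (Entrez gene 21749, chromosome 1, 15805546 to 15844052 on mm10) had 257, 208 and 170 counts in TERT(High) libraries 1, 2 and 3 (numbered by mouse), against 116, 110 and 124 counts in TERT(Low) cells of the same mice. All 3 TERT(High) libraries lay above all 3 TERT(Low) libraries. Scaled to library size by TMM, the level was 3.52 ± 0.643 CPM for TERT(High) and 2.01 ± 0.394 CPM for TERT(Low) cells (SD, n = 3 each). The fitted fold was 1.75 (log2 fold change 0.81, SE 0.25, 95% interval 0.21 to 1.40), with an edgeR adjusted p of 0.0903. Within mice 1, 2 and 3 the ratio of TERT(High) to TERT(Low) was 2.65, 1.64 and 1.24, so mouse 1 had the widest gap and mouse 3 the narrowest. Its edgeR, DESeq2 or limma-voom adjusted p ran from 0.0669 to 0.331 over 19 alternative fits, none under the threshold. Without TERT(High) of mouse 1 its log2 fold change was 0.61, and without mouse 1 altogether 0.51.

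Terf2 (Entrez gene 21750, chromosome 8, 107069400 to 107096548) did not follow Terf1 library by library. Its counts were 106, 237 and 208 in TERT(High) libraries 1, 2 and 3, against 151, 130 and 97 in TERT(Low) cells. TERT(High) of mouse 1, the highest library for Terf1, was the lowest for Terf2, and the groups overlapped. The level was 3.07 ± 1.17 CPM for TERT(High) and 2.13 ± 0.327 CPM for TERT(Low) cells, with a log2 fold change of 0.53 (SE 0.34, 95% interval -0.29 to 1.35, edgeR adjusted p = 0.367). The within-mouse ratios of 0.841, 1.58 and 1.94 for mice 1, 2 and 3 put mouse 1 on the other side of 1. The log2 fold change of Terf2 was 0.77 without TERT(High) of mouse 1 (edgeR adjusted p = 0.0794) and 0.28 without TERT(High) of mouse 2.

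RAP1 RNA was the steadiest of the higher ones. Terf2ip (Entrez gene 57321, chromosome 8, 112011359 to 112020528) had 589, 592 and 490 counts in TERT(High) cells, against 556, 330 and 373 counts in TERT(Low) cells of mice 1, 2 and 3. In CPM, where library size is taken out, the levels were 9.61, 9.78 and 8.41 in TERT(High) cells against 7.57, 6.30 and 7.08 in TERT(Low) cells, with no overlap. The means were 9.27 ± 0.748 and 6.98 ± 0.642 CPM, a 1.33-fold difference (log2 fold change 0.41, SE 0.16, 95% interval 0.03 to 0.79, edgeR adjusted p = 0.15). Gm6793, the gene model that overlaps Terf2ip on the opposite strand, was more abundant and differed in the same direction, at 58.4 ± 20.1 CPM for TERT(High) and 27.9 ± 8.97 CPM for TERT(Low) cells (log2 fold change 1.07, SE 0.35, edgeR adjusted p = 0.102). Its part in the Terf2ip counts was not tested. Kars, the lysyl-tRNA synthetase gene, starts 74 bases from Terf2ip on the opposite strand. Kars was at 47.4 ± 8.32 CPM for TERT(High) and 43.3 ± 3.04 CPM for TERT(Low) cells (log2 fold change 0.13, SE 0.17, edgeR adjusted p = 0.660).

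Of the bridging subunits, Tinf2 was lower in TERT(High) cells within each mouse and Acd was near equal. Tinf2 (Entrez gene 28113, chromosome 14, 55676208 to 55682159) had 605, 451 and 422 counts in TERT(High) cells, against 975, 485 and 562 counts in TERT(Low) cells of mice 1, 2 and 3. Each TERT(High) library lay below the TERT(Low) library of its own mouse, with within-mouse ratios of 0.743, 0.804 and 0.679. Across mice the groups overlapped, since TERT(High) of mouse 1 stood at 9.87 CPM and TERT(Low) of mouse 2 at 9.26 CPM. The means were 8.19 ± 1.46 CPM for TERT(High) and 11.1 ± 2.04 CPM for TERT(Low) cells (log2 fold change -0.44, SE 0.21, 95% interval -0.94 to 0.07, edgeR adjusted p = 0.231). With the mouse as a block the SE of Tinf2 was 0.14 and the edgeR adjusted p 0.1098, still over the threshold. Gmpr2, which overlaps Tinf2 on the opposite strand, had a log2 fold change of -0.17 (SE 0.17, edgeR adjusted p = 0.564).

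Acd (Entrez gene 497652, chromosome 8, 105698155 to 105701228), the gene of TPP1, had 372, 281 and 251 counts in TERT(High) cells, against 381, 307 and 229 counts in TERT(Low) cells. The groups overlapped throughout, and the within-mouse ratios of 1.17, 0.792 and 0.991 fell on either side of 1. At 5.01 ± 0.938 CPM for TERT(High) and 5.13 ± 0.761 CPM for TERT(Low) cells, Acd had a log2 fold change of -0.04 (SE 0.22, edgeR adjusted p = 0.932). Its 95% interval of -0.55 to 0.48 includes values of either sign, and the sign turned with library totals in place of TMM (0.12) and with each library's trend over transcript length and GC content taken out (0.04). Pard6a, whose gene starts 45 bases away on the opposite strand, was at 1.80 ± 0.0973 CPM for TERT(High) and 2.69 ± 0.382 CPM for TERT(Low) cells (edgeR adjusted p = 0.132).

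The POT1 paralogs, which bind the single-stranded overhang, went in opposite directions in each mouse. Pot1a (Entrez gene 101185, chromosome 6, 25743940 to 25809277) had 113, 147 and 135 counts in TERT(High) cells, against 169, 148 and 136 counts in TERT(Low) cells of mice 1, 2 and 3. Its within-mouse ratios were 0.801, 0.859 and 0.898. The means of 2.20 ± 0.310 CPM for TERT(High) and 2.57 ± 0.262 CPM for TERT(Low) cells gave a log2 fold change of -0.23 (SE 0.22, 95% interval -0.74 to 0.29, edgeR adjusted p = 0.551). Pot1b (Entrez gene 72836, chromosome 17, 55651190 to 55712647) had the fewest counts of the 8 genes, 92, 53 and 51 in TERT(High) cells against 72, 21 and 38 in TERT(Low) cells. Its level in TERT(High) cells exceeded that in TERT(Low) cells of each mouse, with ratios of 1.53, 2.18 and 1.21, but TERT(Low) of mouse 1 lay above TERT(High) of mice 2 and 3. The means were 1.08 ± 0.362 CPM for TERT(High) and 0.701 ± 0.290 CPM for TERT(Low) cells (log2 fold change 0.62, SE 0.46, 95% interval -0.46 to 1.71, edgeR adjusted p = 0.426). That interval was the widest of the 8. Single libraries moved the log2 fold change of Pot1b, to 0.26 without TERT(High) of mouse 1 and to 0.95 without TERT(Low) of mouse 1.

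Rtel1 (Entrez gene 269400, chromosome 2, 181319711 to 181356616), the helicase, had 150, 235 and 219 counts in TERT(High) cells, against 267, 127 and 159 counts in TERT(Low) cells. Mouse 1 went one way and the other two mice the opposite way, with ratios of 0.673, 1.60 and 1.25. The level was 3.36 ± 0.794 CPM for TERT(High) and 3.03 ± 0.606 CPM for TERT(Low) cells, and the log2 fold change of 0.15 (SE 0.27, 95% interval -0.49 to 0.79, edgeR adjusted p = 0.743) was smaller than its error. Terf2 and Rtel1 were the genes for which mouse 1 was lower and mice 2 and 3 were higher. In all, 5 of the 8 genes had 1 sign in all 3 mice, Terf1, Terf2ip and Pot1b higher and Tinf2 and Pot1a lower, where 55.8% of all tested genes had 1 sign.

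**Figure D1:**
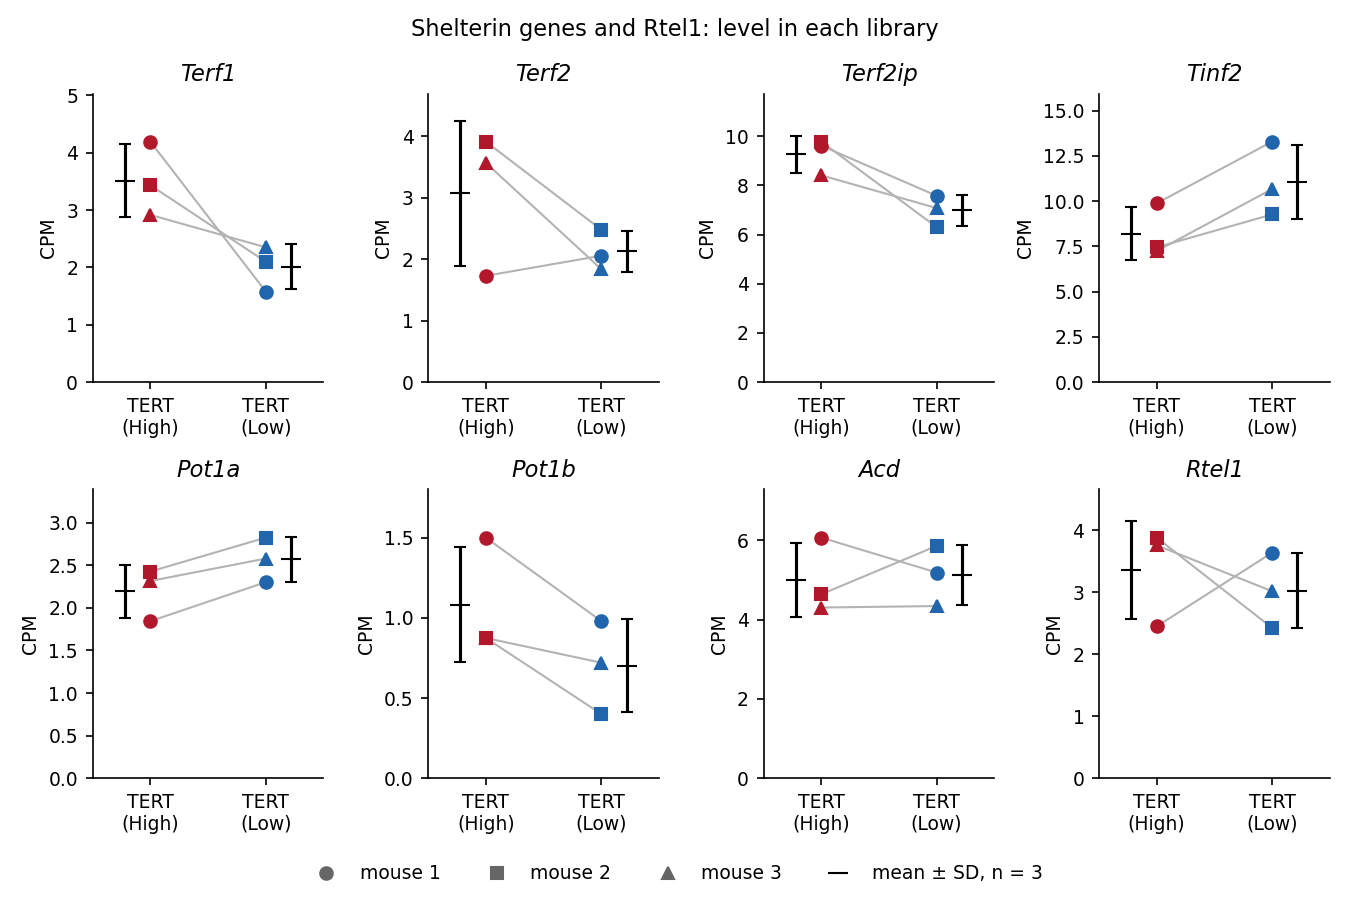
Level of each gene (CPM, y axis from 0, own scale per panel) in TERT(High) and TERT(Low) cells, with grey lines joining the libraries of 1 mouse and bars giving mean ± SD (n = 3). The groups are apart for Terf1 and Terf2ip only, Tinf2 and Pot1a slope the other way in each mouse, and TERT(High) of mouse 1 is the lowest library for Terf2 at 1.73 CPM.

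**Figure D2:**
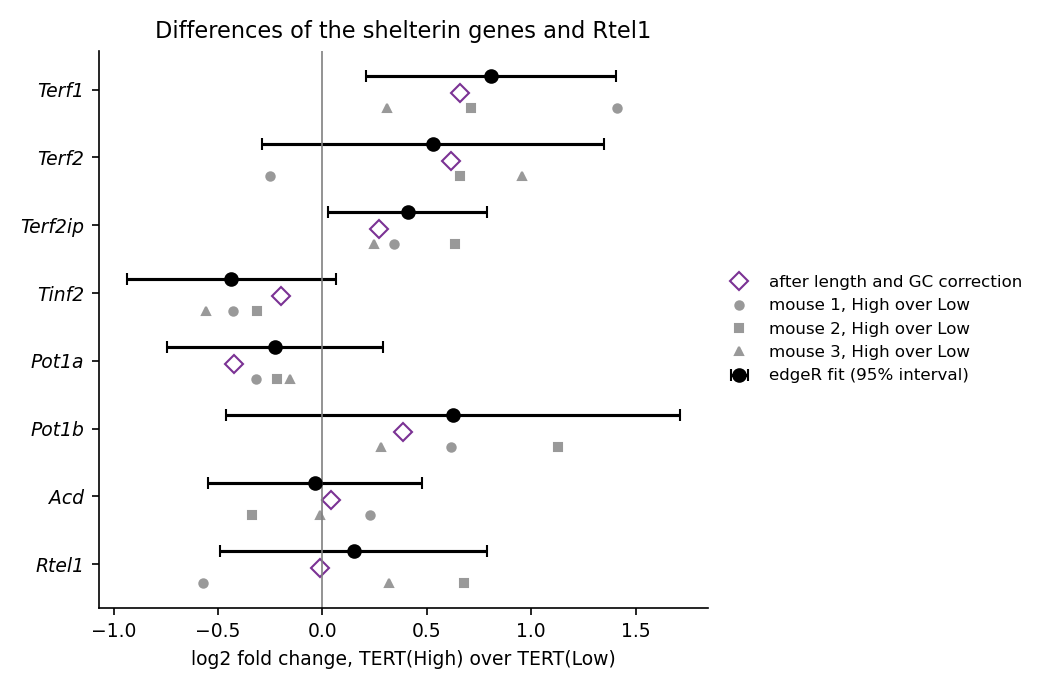
Log2 fold change of each gene, TERT(High) over TERT(Low), with its 95% interval from the edgeR fit (black), the value corrected for length and GC (diamond) and the difference within each mouse (grey). The intervals of Terf1 (0.21 to 1.40) and Terf2ip (0.03 to 0.79) lie above 0, while all 8 adjusted p are over 0.05.

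Levels can be compared between genes only per length, and here CPM was divided by the length in kb of the GENCODE transcript with the longest coding sequence. Tinf2 was the most abundant RNA of the 8 in both populations, at 4.09 ± 0.732 CPM per kb for TERT(High) and 5.53 ± 1.02 CPM per kb for TERT(Low) cells. Terf2ip came next at 2.60 ± 0.210 and 1.96 ± 0.180 CPM per kb, and Pot1b was last at 0.308 ± 0.103 and 0.199 ± 0.0825 CPM per kb. Between them in TERT(High) cells stood Acd (1.59 CPM per kb), Terf1 (1.55), Terf2 (1.15), Rtel1 (0.764) and Pot1a (0.697), each overlapping the next over the libraries. In TERT(Low) cells the order was Acd (1.63 CPM per kb), Terf1 (0.887), Pot1a (0.815), Terf2 (0.797) and Rtel1 (0.688), of which Acd and Terf1 were the only neighbours that did not overlap. The order at the top depended on the length used. Over all annotated exons Terf2ip was first in TERT(High) cells at 1.87 CPM per kb, overlapping Tinf2 at 1.66, and Tinf2 was first in TERT(Low) cells at 2.24.

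As a share of the summed per-length level of the 7 shelterin RNAs, Tinf2 made up 37.8%, 31.2% and 33.0% in TERT(High) cells of mice 1, 2 and 3, against 51.5%, 41.6% and 46.6% in TERT(Low) cells. Terf1 took 14.2%, 12.7% and 11.7% in TERT(High) cells, against 5.41%, 8.33% and 9.06% in TERT(Low) cells. Neither share overlapped between the groups, and nor did that of Terf2ip (21.7 ± 1.18% in TERT(High) against 16.6 ± 0.733% in TERT(Low) cells). The shares of the other shelterin RNAs overlapped. In CPM the Tinf2 groups overlapped, and 33.4% of all tested genes did not overlap in either direction. The shares use the GENCODE transcript with the longest coding sequence. Over all annotated exons Terf2ip, at 1.87 CPM per kb, was above Tinf2, at 1.66, in TERT(High) cells, and shares were not taken on that scale. The 7 RNAs summed to 32.3 ± 2.60 CPM for TERT(High) and 30.6 ± 2.07 CPM for TERT(Low) cells (SD, n = 3 each), a difference smaller than either SD. These sums are not corrected for length, and shares of a whole depend on each other.

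Ratios of partner genes inside a library do not depend on how libraries are scaled, and 6 were compared by exact two-sided permutation over the libraries. With 3 against 3 libraries the smallest p this test can give is 0.1. The permutation treated the libraries as independent and did not use the pairing by mouse. The ratio of Terf1 to Tinf2, a direct binding pair, was 0.425, 0.461 and 0.403 in TERT(High) cells of mice 1, 2 and 3, against 0.119, 0.227 and 0.221 in TERT(Low) cells. It was the only one of the 6 whose groups did not overlap, with a difference in mean log2 ratio of 1.24 (SD 0.0983 in TERT(High) and 0.526 in TERT(Low), n = 3 each), higher in 3 of 3 mice. The exact p was 0.1, and 0.6 after adjustment over the 6 ratios. TERT(Low) of mouse 1 was the lowest library. Without mouse 1 the difference was 0.95.

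The ratio of Pot1a to Pot1b, the paralogs that share the partner TPP1, was lower in TERT(High) cells of all 3 mice. It was 1.23, 2.77 and 2.65 in TERT(High) cells, against 2.35, 7.05 and 3.58 in TERT(Low) cells, and the groups overlapped (mean log2 difference -0.90, exact permutation p = 0.3, n = 3 each). Acd over Tinf2, the pair that joins the bridge to TPP1, held to a narrow range of 0.615, 0.623 and 0.595 in TERT(High) cells and spread over 0.391, 0.633 and 0.407 in TERT(Low) cells (mean log2 difference 0.39, exact permutation p = 0.4). Terf1 over Terf2 was 2.42, 0.878 and 0.817 in TERT(High) cells against 0.768, 0.846 and 1.28 in TERT(Low) cells, so that 1 library, TERT(High) of mouse 1, stood apart (exact permutation p = 0.6). Its mean log2 difference was 0.36 with all mice and -0.30 without mouse 1. For Terf2ip over Terf2 the mean log2 difference was -0.05 (exact permutation p = 0.8), and 0.29 without mouse 3. For Acd over Pot1a it was 0.19 (exact permutation p = 0.7), with 0.013 without mouse 1, 0.34 without mouse 2 and 0.46 corrected for length and GC. Adjusted over the 6 ratios, the p of these 5 was 0.8.

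**Figure D3:**
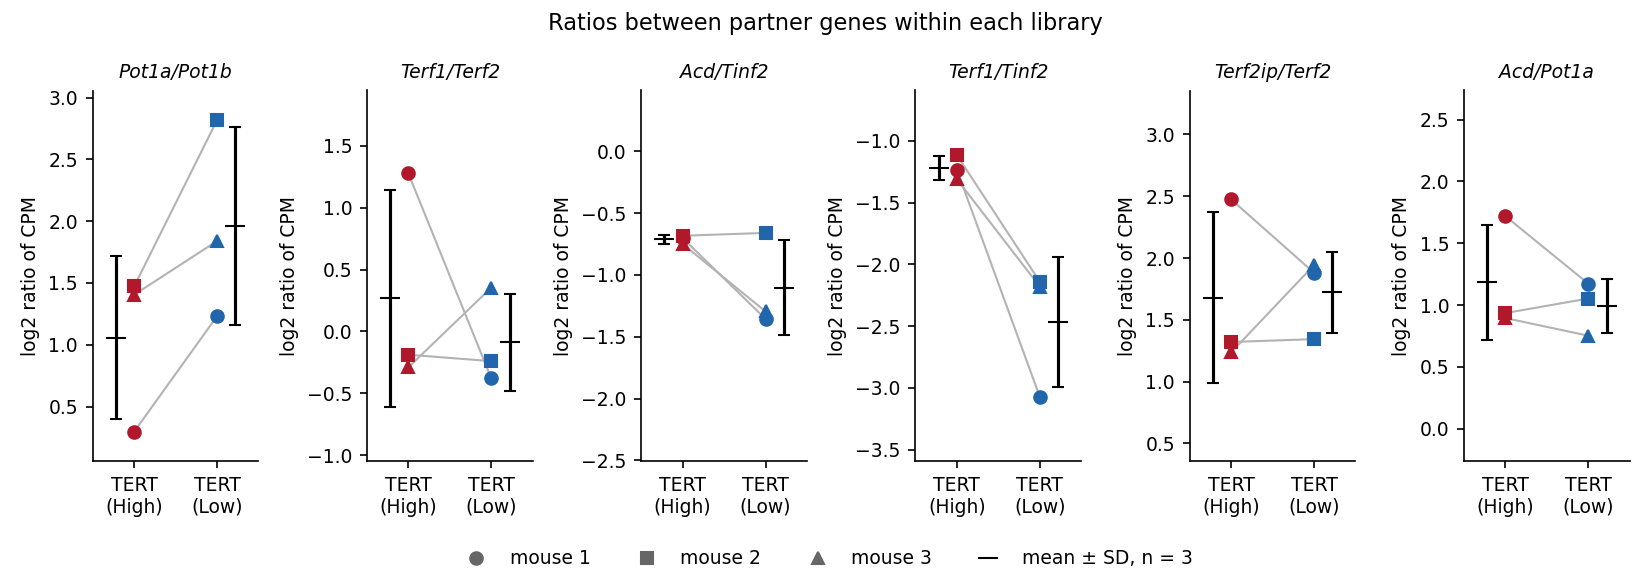
Log2 ratio of CPM of 6 pairs of partner genes in each library, TERT(High) at the left and TERT(Low) at the right of each panel, with lines joining the libraries of 1 mouse and bars giving mean ± SD (n = 3); all panels span the same height. Terf1/Tinf2 is the panel in which the groups are apart, and the Terf1/Terf2 ratio of TERT(High) of mouse 1 (2.42 on the linear scale) stands alone.

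Transcript length moved with the difference between the groups across all genes, and these 8 genes sit in the middle of that trend. Their transcripts ran from 2001 nt (Tinf2) to 4401 nt (Rtel1). In the length quintile of 1665 to 2514 nt, which holds Terf1 and Tinf2, the median log2 fold change of all tested genes was -0.15. The quintile of 2515 to 3465 nt, with Terf2, Pot1a and Acd, had a median of 0.06, and that of 3466 to 4905 nt, with Terf2ip, Pot1b and Rtel1, one of 0.28. Terf1 lay higher than 95.7% of the genes in its quintile and Terf2 higher than 80.7%, while Tinf2 lay higher than 23.7%. Terf2ip lay higher than 58.4% of its quintile and Pot1b higher than 72.0%. For Acd, Rtel1 and Pot1a the values were 41.7%, 40.8% and 26.9%. With the trend over length and GC content taken out of each library, the fitted log2 fold changes became 0.66 (SE 0.20) for Terf1, 0.61 (SE 0.31) for Terf2 and 0.27 (SE 0.16) for Terf2ip. Those of Tinf2 and Pot1a were -0.20 (SE 0.24) and -0.42 (SE 0.25), that of Pot1b was 0.38 (SE 0.43), and those of Acd and Rtel1 were 0.04 and -0.01. On this scale edgeR called 0 of 13288 genes (unadjusted, 1437 were higher and 781 lower), and with the mouse as a block it called 3.46%, 0 of the 8 among them. Without the block the lowest adjusted p among the 8 was 0.188, that of Terf1. The Terf1 to Tinf2 difference was then 0.86 in place of 1.24.

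**Figure D4:**
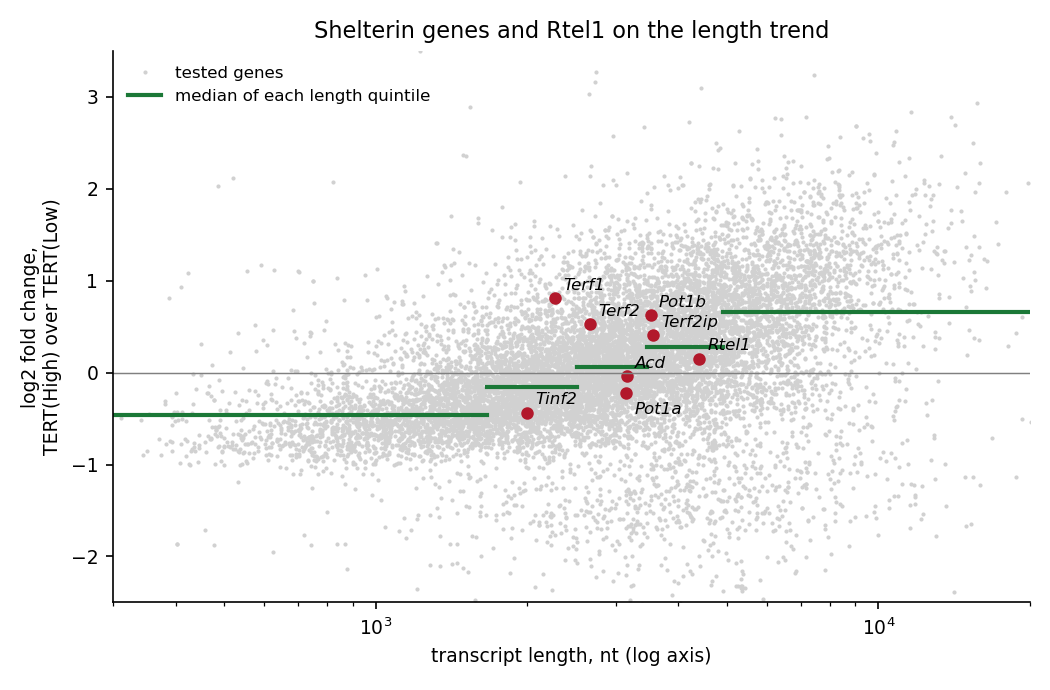
Log2 fold change of all tested genes (TERT(High) over TERT(Low), y axis) against transcript length in nt (log axis), with green lines at the median of each length quintile and the 8 genes in red; 27 genes outside the axes are not drawn. Terf1 and Terf2 lie above, and Tinf2 and Pot1a below, the median of their quintile.

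Among the 7 members read from it, the authors' deposited table gave 0 with an adjusted p under 0.05, beside 29.2% of its 10858 genes. The log2 fold changes in the authors' deposited table were 0.66 for Terf1 (SE 0.33, adjusted p = 0.121) and -0.44 for Tinf2 (SE 0.21, adjusted p = 0.106). For Terf2ip the authors' deposited table gave 0.24 (SE 0.22, adjusted p = 0.421), smaller than the 0.41 of the fit above. Values of Pot1b from that table are not used here.

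Genes that work with shelterin gave 9 calls, 7 higher and 2 lower in TERT(High) cells, to be read beside the 4.43% higher and 3.71% lower over all tested genes. Of the 7 higher ones 5 had transcripts in the longest quintile (4906 nt and over), Gnl3 and Nbn being shorter, and both lower ones were in the shortest (1664 nt and under). Over all genes, 382 of the 588 higher calls were in the longest quintile and 377 of the 493 lower calls in the shortest, a split like that of these 9. These calls rest on all libraries: edgeR called 0 of all genes when any 1 library was left out, except without TERT(High) of mouse 1, and 0 when any mouse was left out. The CST complex, which binds the overhang after replication and limits telomerase, had 0 of 3 called by edgeR, also 0 at an unadjusted p under 0.05. Ctc1, its large subunit, was at 3.77 ± 0.705 CPM for TERT(High) and 2.50 ± 1.11 CPM for TERT(Low) cells (log2 fold change 0.59, SE 0.38, edgeR adjusted p = 0.374). The groups of Ctc1 were only just apart, by 3.26 against 3.24 CPM, both from mouse 1. TERT(Low) of mouse 3 was the lowest library, at 1.23 CPM. Over all tested genes 17.5% lay apart on the higher side. The small CST subunits Stn1 and Ten1 stood at -0.41 and -0.49 (log2, SE 0.40 and 0.58).

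Among 17 factors that shelterin recruits or that act on it, 4 passed on the higher side and none on the lower, with a list median of 0.51. Tnks, tankyrase 1, which releases TRF1 from telomeres by ADP-ribosylation, was at 7.41 ± 1.55 CPM for TERT(High) and 2.10 ± 0.666 CPM for TERT(Low) cells (log2 fold change 1.82, SE 0.31, edgeR adjusted p = 0.0296). Rif1, which controls replication timing and end resection, and Wrn, the Werner helicase, stood at 1.80 and 1.48 (log2; SE 0.37 and 0.20), with edgeR adjusted p of 0.0395 and 0.0277. Gnl3, nucleostemin, a nucleolar GTPase that binds TRF1, was at 10.4 ± 0.114 CPM for TERT(High) and 6.01 ± 0.646 CPM for TERT(Low) cells (log2 fold change 0.79, SE 0.15, edgeR adjusted p = 0.0364). The lowest member, Fbxo4, a ubiquitin ligase subunit that acts on TRF1, was at 9.85 ± 0.323 CPM for TERT(High) and 14.3 ± 2.75 CPM for TERT(Low) cells (edgeR adjusted p = 0.1005). Corrected for length and GC, the median was 0.15, and Tnks, Rif1, Wrn and Gnl3 stood at 1.18, 0.90, 0.83 and 0.82 (log2). These 4 calls also passed with the mouse as a block, with edgeR adjusted p of 0.0407, 0.0421, 0.0407 and 0.0451.

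Of 22 tested genes of the end-sensing checkpoint and of end joining, the responses that shelterin holds back, 2 were higher and none lower (median 0.50), namely Prkdc, the catalytic subunit of DNA-PK (1.81, SE 0.31, edgeR adjusted p = 0.0293), and Nbn of the MRN complex (1.45, SE 0.28, edgeR adjusted p = 0.0348). Atr and Atm, the checkpoint kinases, had larger fitted values of 2.18 (SE 0.54) and 2.16 (SE 0.52) with edgeR adjusted p of 0.0549 and 0.0516, and of 0.0462 and 0.0407 with the mouse as a block. Lig4, the ligase of end joining (1.49, SE 0.43), likewise had an edgeR adjusted p of 0.0751, and of 0.0409 with the block. Atm and Lig4 were named after their values were seen. With the block 721 of all 13288 tested genes were called higher. Nhej1, an end-joining factor, was the lowest at -0.94 (SE 0.29, edgeR adjusted p = 0.0880). Corrected for length and GC, the median was 0.29, Prkdc was at 0.98 and Nbn at 1.38 (log2). Atr, Atm and Lig4, with transcripts of 8102, 9787 and 5028 nt, all in the longest quintile, were then at 1.38, 1.47 and 0.93. Nhej1 was then at -0.45. These 2 in 22 stand beside 4.43% of all genes called higher. Telomeric chromatin and repeat-binding genes had 1 of 16 higher, none lower and a median of 0.23. The called one was Smchd1, a chromatin regulator of the SMC family (1.69, SE 0.27, edgeR adjusted p = 0.0277; 0.96 corrected for length and GC). A count of 1 in 16 is near the share over all genes. Upf1 had the highest value, 2.05 (SE 0.67, edgeR adjusted p = 0.102), and H3f3a, which encodes histone H3.3, the lowest, -0.44 (SE 0.16, edgeR adjusted p = 0.124). The Upf1 groups overlapped, and mouse 1 was lower in TERT(High) cells. Its levels were 6.09, 33.4 and 33.9 CPM in TERT(High) against 6.98, 7.62 and 3.09 CPM in TERT(Low) cells of mice 1, 2 and 3.

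Telomerase and its cofactors had 0 higher and 2 lower among 12 tested genes. Nhp2 and Nop10, proteins of the H/ACA particle that holds the telomerase RNA, fell by 0.80 and 0.73 (log2 scale; SE 0.13 and 0.14), with edgeR adjusted p of 0.0277 and 0.0340. Corrected for length and GC their values were -0.29 and -0.41. Tep1 was the highest at 1.09 (SE 0.30, edgeR adjusted p = 0.0700). Tert itself, the check of the sort, had 38, 33 and 30 counts in TERT(High) cells, against 21, 21 and 12 counts in TERT(Low) cells of mice 1, 2 and 3, with no overlap (edgeR adjusted p = 0.249). Terc had at most 1 count in a TERT(High) library and from 2 to 7 in TERT(Low) libraries, and did not pass the filter. Counts this low in mRNA libraries do not allow a comparison of Terc between the groups. Of 8 genes of the meiotic telomere adaptor list, 2 were tested, Sun1 and Cdk2, and neither was called (log2 fold changes 0.20 and -0.48, SE 0.23 and 0.35). No test was made of a list as a whole.

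**Figure D5:**
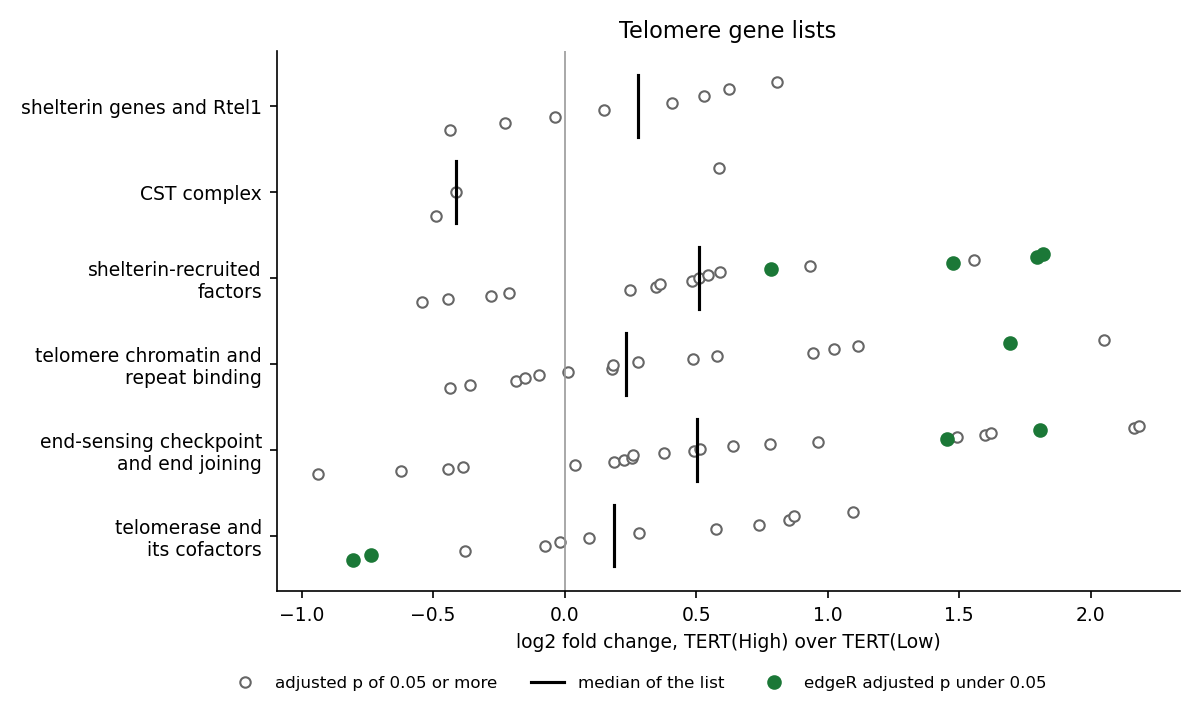
Log2 fold change, TERT(High) over TERT(Low), of each tested gene (circles) in 6 telomere gene lists, with the list median as a black line; filled circles have an edgeR adjusted p under 0.05. No circle is filled for the shelterin genes and Rtel1 or for the CST complex, while 4 of 17 shelterin-recruited factors are filled on the higher side.

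Among 7176 named genes of at least 5 CPM on average, those whose log2 CPM most resembled each member over the 6 libraries were listed by Pearson's r. With 6 points, libraries that share mice, and so many genes, these values are a description. Terf1 was most like Anp32b (r = 0.994) and Manea (0.990), and Terf2ip like Cog5 (0.985) and Rapgef4 (0.980). For Terf2, Tnk2 was among the genes most like it (0.999). Tinf2 was most like Galm (0.995) and Stom (0.992), Pot1a like Tcta (0.994) and Cndp2 (0.993), and Acd like Golph3 (0.984) and Alg3 (0.980). Pot1b was most like Nr1d2 (0.991), a nuclear receptor of the circadian clock, and Uri1 (0.985), and Rtel1 was most like Lars2 (0.962) and Madd (0.957). Nr1d2 was at 38.7, 11.1 and 12.9 CPM in TERT(High) cells of mice 1, 2 and 3, against 17.2, 2.12 and 10.3 CPM in TERT(Low) cells. In Nr1d2 as in Pot1b, mouse 1 was the highest and mouse 2 the lowest of the TERT(Low) libraries. None of these genes except Manea passed edgeR's test (adjusted p = 0.0487).

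Libraries held from 53585174 to 64065266 counts for TERT(High) cells and from 55355819 to 76164917 for TERT(Low) cells. Hepatocyte markers made up from 117675 to 126510 CPM for TERT(High) and from 104936 to 130302 CPM for TERT(Low) libraries over 9 genes, of which 0 were called higher and 1 lower. Alb was the largest part of these sums, with means of 83330 against 62650 CPM. The sums therefore say little of the other markers. Within every mouse 6 of the 9 markers fell and 3, Alb among them, rose. Without overlap, 3 lay below and 1, Alb, above. The median log2 fold change of the 9 was -0.38, and -0.04 corrected for length and GC. Among markers of other liver cells, those of sinusoidal endothelium were the only ones with calls. Of 7 sinusoidal endothelial markers 2, Kdr and Lyve1, were called higher in TERT(High) cells, beside 4.43% of all tested genes. Without overlap 5 of the 7 lay above, beside 17.5% of all tested genes. Within every mouse 6 of the 7 were higher, while Clec4g was at 8.75 ± 2.08 CPM for TERT(High) and 9.25 ± 0.931 CPM for TERT(Low) cells. The sum of the 7 ran from 27.0 to 49.6 CPM for TERT(High) and from 19.6 to 22.7 CPM for TERT(Low) libraries. Sums ran from 12.5 to 73.1 against 10.4 to 32.9 CPM for 7 macrophage markers, from 1.94 to 6.68 against 0.204 to 1.37 CPM for 5 neutrophil markers and from 2.86 to 236 against 2.77 to 12.99 CPM for 7 stellate cell and fibroblast markers. For 6 erythroid markers they ran from 17.5 to 206 against 39.8 to 61.0 CPM, for 3 cholangiocyte markers from 2.05 to 11.7 against 2.13 to 3.26 CPM, and for 6 T or NK cell markers from 0.261 to 1.27 against 0.136 to 1.27 CPM. The 2 B cell markers reached at most 0.261 CPM. The stellate, erythroid and cholangiocyte sums were highest in 1 library, TERT(High) of mouse 1, which also stood apart for Terf1 over Terf2. Col1a1, a collagen gene, was at 127, 1.04 and 0.172 CPM in TERT(High) libraries 1, 2 and 3. Neutrophil sums did not overlap between the groups, with 0 markers called. The part of other cell types in the levels of the shelterin RNAs was not tested.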

How the data were processed

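The submitters' processing notes name TopHat2 2.0.13, Trim Galore 0.4.0, DESeq2 and the mm10 genome. No source used here names the read counter, its strand setting or its annotation. Whole counts per gene were deposited for each library, with no scaling. A second file, the authors' deposited results, gives as signal the baseMean (a mean scaled count), and its log2 fold changes and SE, the linear fold (ratio), the Wald statistic (a score), and the p-value and adjusted p come from the authors' own comparison.

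Counts of 6 libraries were fitted with edgeR 4.0.16 (R 4.3.3): filterByExpr, TMM scaling, robust quasi-likelihood, group as the only term, Benjamini-Hochberg adjustment over 13288 genes, threshold 0.05. SE is the absolute log2 fold change over the square root of F. Alternatives changed scaling, filter, tool (DESeq2 1.42.0, limma 3.58.1), block, length and GC correction (natural splines of 5 df per library) and libraries. The code was tested on simulated data with 200 changed genes. Exact permutation used scipy 1.17.1.

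The labels pair both populations of each mouse, and deviations of a mouse's libraries correlated at -0.089, 0.733 and 0.601 for mice 1, 2 and 3. Lengths are from GENCODE M21 (93.0% of genes) and coordinates from RefSeq GRCm38.p6 (99.7%). Members, lists and tests were chosen with earlier results of these data known. Named are all members, Tert and Terc, and from each list the called genes (at most 4), its highest and its lowest, and for each member the 2 genes most like it by r, of which 1 is not reported here. Atm, Lig4, neighbours and marker names were added after their values were seen.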

Additional observations from a re-analysis of the deposited data

How the results depend on the processing

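Under all 19 alternatives 0 of the 8 genes passed the threshold (7 tested with at least 1 CPM in 3 libraries, where Pot1b was dropped). The median log2 fold change of the members, 0.28 in the main fit, ran from 0.14 to 0.47. These shifts were smaller than its SD over mice, 0.33. That SD exceeds the median itself, so it cannot show that the median is steady. Terf1, Terf2, Terf2ip, Tinf2, Pot1a and Pot1b kept their sign in every alternative that tested them. Their ranges were 0.51 to 1.05 for Terf1, 0.28 to 0.79 for Terf2, 0.27 to 0.55 for Terf2ip, -0.64 to -0.19 for Tinf2, -0.45 to -0.084 for Pot1a and 0.26 to 0.95 for Pot1b. With library totals alone Acd turned to 0.12. Corrected for length and GC, Acd was 0.039 and Rtel1 -0.011, and with the replicate block added they were 0.0037 and -0.0076. Leaving out single libraries, Acd ran from -0.24 to 0.078 and Rtel1 from -0.0043 to 0.30, the lower end without TERT(High) of mouse 2; leaving out mice, Acd ran from -0.19 to 0.13 and Rtel1 from -0.10 to 0.49. The log2 difference of Terf1 over Terf2 ran from -0.30 to 0.86, and that of Terf2ip over Terf2 from -0.37 to 0.29, without single mice. With the mouse as a replicate block the calls over all genes were 721 higher and 571 lower in place of 588 and 493, and no call of a member changed. DESeq2 called 1522 higher and 1298 lower, library totals 19 lower, the correction for length and GC 0 and 0, and that correction with the replicate block 370 and 90. Without single libraries or mice edgeR called from 0 to 937 higher and from 0 to 713 lower (smallest counts at an unadjusted p under 0.05: 1071 and 748). It called 0 in each of these except without TERT(High) of mouse 1; the cause was not tested. Depth limits Pot1b most, at 21 counts in its lowest library.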
